A study of Mus musculus with 16 samples.

Results

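Cardiac potassium channels were followed through 9 genes: the inward rectifier subunits Kcnj2, Kcnj3, Kcnj5 and Kcnj11, the transient outward current genes Kcnd2 and Kcnip2, and the delayed rectifier subunits Kcna5, Kcnq1 and Kcnh2. They were taken by symbol from a table of 35682 mouse genes, and all 9 passed the filter on low counts, which left 10945 genes for testing. The libraries came from ventricular myocytes, the contracting cells of the lower heart chambers, isolated by Langendorff perfusion and plated before RNA extraction. Myocytes of 8 mice labelled B3AR-Tg, a line named for the beta-3 adrenergic receptor, were compared with those of 8 wild-type (WT) littermates. Both groups had undergone transverse aortic constriction (TAC), a narrowing of the aorta that makes the left ventricle pump against a higher pressure, 9 weeks earlier, so no unoperated animal enters any comparison. The promoter that drives the transgene, the strain, the sex and the age of the animals are not given in the sources used here.

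Potassium channels let potassium leave the myocyte and so end the action potential and hold the resting voltage. Pore-forming alpha subunits assemble as tetramers, and auxiliary subunits change their gating or their number at the membrane. In the ventricle, Kv4 channels carry the fast transient outward current, Kir2 channels carry the inward rectifier current that sets the resting potential, and adenosine triphosphate (ATP)-sensitive channels open when energy runs low. Reduced potassium channel expression with a longer action potential is a well-known feature of the overloaded heart.

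The species of the transgene is not given in the sources used here, and its level was not used to check the labels. Adgrb3, an adhesion receptor gene chosen after its values were seen, had 0 to 3 counts in the 8 WT libraries and 247 to 723 in the 8 B3AR-Tg libraries, so no library crossed its labelled group for this gene. Libraries held between 5985335 and 14365864 counts. The ventricular markers Myl2, Myl3, Myh6, Tnnt2, Tnni3 and Irx4 were present in every library, with a summed level of 26317 to 35861 CPM among WT animals and 31860 to 38820 among B3AR-Tg, and 0 of these 6 passed the test between genotypes. CPM is the count scaled to library size, here with TMM factors. Markers of other cells were low but did not all stay level. The 8 fibroblast markers summed to 45.9 to 189.8 CPM among WT animals and 12.0 to 65.1 among B3AR-Tg, with 5 of 7 tested markers lower. The 7 endothelial markers summed to 83.6 to 123.7 CPM among WT animals and 40.3 to 152.5 among B3AR-Tg, with 2 of 7 lower. Of 6 tested mural and smooth muscle markers, 2 leukocyte markers and 1 Schwann and neuronal marker, 0 passed. Their sums were 88.0 to 163.7 CPM among WT animals and 48.2 to 142.8 among B3AR-Tg for mural cells, 4.27 to 15.4 CPM among WT animals and 0.795 to 6.38 among B3AR-Tg for leukocytes and 1.61 to 5.81 CPM among WT animals and 1.88 to 6.46 among B3AR-Tg for Schwann and nerve cells. The load markers Nppa, Nppb, Myh7, Acta1 and Ankrd1 were lower in B3AR-Tg, all 5 of them, with Nppa at 78.4 to 1349 CPM among WT animals and 5.76 to 120.3 among B3AR-Tg, and Myh7 at 796.7 to 5351 and 415.7 to 1093 CPM.

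Of the 9 channel genes, 5 were higher in B3AR-Tg at an adjusted p under 0.05 and 0 were lower. These were Kcnj2, Kcnj3, Kcnj5, Kcnd2 and Kcnh2, by factors between 1.46 and 1.65. Across all tested genes, 2.03% were called higher and 2.88% lower. Genes were tested with edgeR's quasi-likelihood test, with Benjamini-Hochberg adjustment over all tested genes. The median log2 fold change was 0.54 over the 9 members and 0.01 over all tested genes. Kcnip2 and Kcnq1 had positive estimates that did not pass, and Kcnj11 and Kcna5 had negative ones that did not pass. In RNA from a cell preparation, fewer cells of a type and less RNA per cell cannot be told apart.

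**Figure D1:**
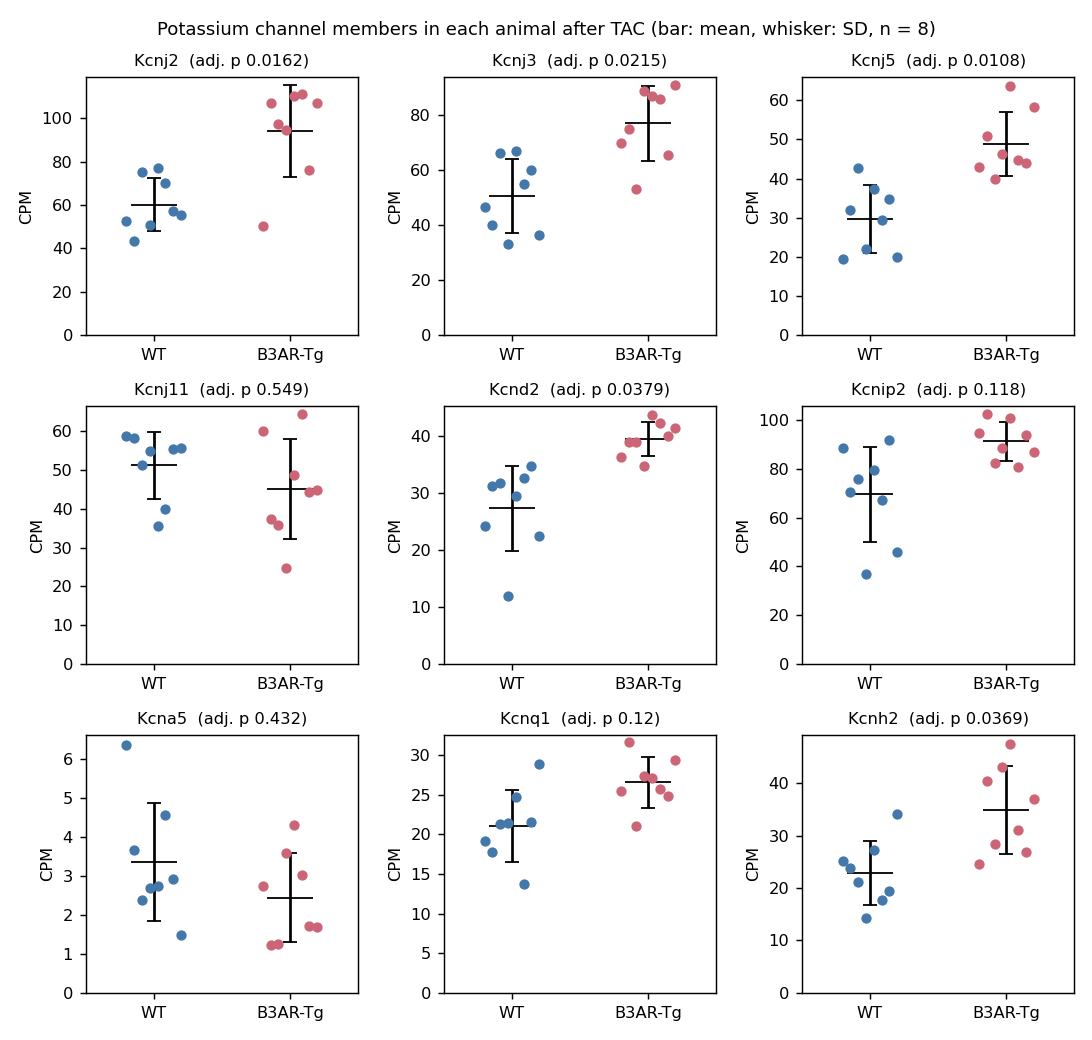
Level of each of the 9 genes in CPM (vertical axis, from 0) in every animal (points, 8 WT in blue and 8 B3AR-Tg in red), with the mean and SD. Kcnd2 is the gene whose groups do not overlap, with WT animals at 11.9 to 34.7 CPM and B3AR-Tg animals at 34.8 to 43.6 CPM.

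Kcnj2 (chr11:111066164-111076821, GRCm38 with GENCODE M21 gene models) encodes Kir2.1, the main subunit of the ventricular inward rectifier current. In WT its lowest, median and highest levels were 43.2, 56.3 and 77.1 CPM, and in B3AR-Tg they were 50.3, 102.2 and 110.9 CPM. Of the 8 B3AR-Tg animals, 6 lay above every WT animal, while replicate 1 at 50.3 CPM lay among the lowest WT animals. The log2 fold change was 0.65 (SE, the standard error, 0.15), a 1.57-fold difference (95% interval 1.26 to 1.94, edgeR adjusted p = 0.0162).

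Kcnj3 (chr2:55435970-55598145) and Kcnj5 (chr9:32314707-32344350) encode GIRK1 and GIRK4, which assemble into the channel that G protein beta-gamma subunits open after muscarinic or adenosine receptor stimulation. It is best known from atrial and nodal cells. Kcnj3 had a lowest, median and highest level of 33.2, 50.7 and 66.8 CPM in WT and of 53.0, 80.2 and 90.7 CPM in B3AR-Tg. All 8 B3AR-Tg animals were above the WT median and 6 were above every WT animal. Its log2 fold change was 0.61 (SE 0.15, edgeR adjusted p = 0.0215). Kcnj5 had the smallest p-value of the 9 genes. Its lowest, median and highest levels were 19.5, 30.7 and 42.8 CPM in WT and 39.8, 45.5 and 63.7 CPM in B3AR-Tg. The groups met only at WT replicate 3, the single WT animal above the lowest B3AR-Tg animal, and the log2 fold change was 0.72 (SE 0.15, edgeR adjusted p = 0.0108).

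These 3 inward rectifier genes were each called higher, and the sequence before the start of each is shown. RefSeq's promoter table on GRCm38.p6 held an entry for 7 of the 9 members. The 250 bases before the start lie at chr11:111065914-111066163 (plus strand) for Kcnj2, chr2:55435720-55435969 (plus strand) for Kcnj3 and chr9:32344345-32344594 (minus strand) for Kcnj5. Each is written 5′ to 3′ on the gene's strand, with capitals marking motif matches on either strand. The motifs were chosen with the expression results known. The first is GGGCGG, known as the GC box and bound by Sp family factors. The E-box searched for was CACGTG, which reads the same on both strands. The last is the short motif CACCC, bound by Krüppel-like factors. None of these matches overlap in the stretches shown.
Kcnj2: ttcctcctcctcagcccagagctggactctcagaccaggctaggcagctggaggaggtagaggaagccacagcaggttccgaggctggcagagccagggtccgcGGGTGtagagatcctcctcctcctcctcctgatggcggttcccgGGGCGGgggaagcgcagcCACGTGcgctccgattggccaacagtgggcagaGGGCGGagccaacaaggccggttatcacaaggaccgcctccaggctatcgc
Kcnj3: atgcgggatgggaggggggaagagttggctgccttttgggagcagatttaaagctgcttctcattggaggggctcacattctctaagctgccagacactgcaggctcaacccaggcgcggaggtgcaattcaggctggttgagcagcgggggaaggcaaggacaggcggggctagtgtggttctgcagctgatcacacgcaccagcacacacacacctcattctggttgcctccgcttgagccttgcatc
Kcnj5: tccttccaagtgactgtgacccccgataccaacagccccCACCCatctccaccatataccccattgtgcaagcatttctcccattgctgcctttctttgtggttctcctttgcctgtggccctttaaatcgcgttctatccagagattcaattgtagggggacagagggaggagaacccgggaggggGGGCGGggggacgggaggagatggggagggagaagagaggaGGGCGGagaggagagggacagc
Kcnj2 carried the only E-box among the 7 members searched, starting 84 bases before the start, and 7.15% of 32851 promoter windows of 300 bases hold one. A GC box was present in the 300-base windows of 6 of 7 members, against 35.7% of all windows, and the short Krüppel-like factor motif in 6 of 7, against 57.5%. In the stretch printed for Kcnj3 there was no match to these 3 motifs, and its GC box lay just after the start. Of the other motifs searched on both strands, the cAMP response element TGACGTCA matched 0 of the 7 windows, and 1.79% of all windows hold it. A TATA box, spelled TATAAA, matched 0 of 7 as well, against 13.6% of all windows. The GATA factor motif AGATAA likewise matched 0 of 7, against 11.2%. A match describes letters only.

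Kcnj11 (chr7:46093953-46100764) encodes Kir6.2, the pore of the ATP-sensitive channel, and did not pass the test. Its lowest, median and highest levels were 35.4, 55.2 and 58.8 CPM in WT and 24.9, 44.5 and 64.5 CPM in B3AR-Tg, so the groups overlapped widely. The log2 fold change was −0.18 with a 95% interval of −0.50 to 0.14 (edgeR adjusted p = 0.549).

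Kcnd2 (chr6:21215503-21729805) encodes Kv4.2, the alpha subunit of the fast transient outward channel in the rodent ventricle. Levels in WT had a lowest, median and highest value of 11.9, 30.3 and 34.7 CPM, and in B3AR-Tg of 34.8, 39.4 and 43.6 CPM. Every B3AR-Tg animal was above every WT animal, though the 2 nearest animals differed by little. Among all tested genes, 0.448% had groups that did not overlap. The log2 fold change was 0.54 (SE 0.15, edgeR adjusted p = 0.0379).

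Kcnip2 (chr19:45791839-45816061) encodes KChIP2, the calcium-binding subunit that Kv4 channels need for normal surface expression. Its lowest, median and highest levels were 36.8, 73.1 and 91.8 CPM in WT and 80.9, 91.4 and 102.5 CPM in B3AR-Tg. All 8 B3AR-Tg animals were above the WT median, and 6 WT animals were below the lowest B3AR-Tg animal. The log2 fold change of 0.40 (95% interval 0.10 to 0.69) did not pass over all genes (edgeR adjusted p = 0.118). WT replicates 4 and 8 were the 2 lowest animals for both Kcnd2 and Kcnip2, at 36.8 and 46.1 CPM of Kcnip2 and 11.9 and 22.5 CPM of Kcnd2.

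Kcnh2 (chr5:24319589-24351604) encodes ERG, the alpha subunit of the rapid delayed rectifier. Its lowest, median and highest levels were 14.3, 22.6 and 34.1 CPM in WT and 24.6, 34.1 and 47.6 CPM in B3AR-Tg. The groups overlapped, since WT replicate 8 at 34.1 CPM was as high as the B3AR-Tg median, yet all 8 B3AR-Tg animals were above the WT median. The log2 fold change was 0.60 (SE 0.16, edgeR adjusted p = 0.0369).

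Kcnq1 (chr7:143106362-143427042) encodes the alpha subunit of the slow delayed rectifier. It had a lowest, median and highest level of 13.7, 21.3 and 28.9 CPM in WT and of 20.98, 26.4 and 31.6 CPM in B3AR-Tg, with a log2 fold change of 0.33 (95% interval 0.08 to 0.58) that did not pass (edgeR adjusted p = 0.120). Kcnq1 overlaps the antisense transcript Kcnq1ot1, and the strand setting of the counting is not given in the sources used here, so part of its value is uncertain. The same holds for Kcnh2, which overlaps the antisense gene Gm15589, and for Kcnj3, which overlaps Gm26794 on the other strand. Kcnd2 and Kcnq1 also overlap genes on their own strand, among them Gm42583 for Kcnd2 and Gm38321 for Kcnq1. Overlap was judged on whole gene spans, so whether exons are shared was not tested. Kcna5 (chr6:126532551-126535412) encodes Kv1.5, part of the ultrarapid delayed rectifier, and was the least abundant member, at 12 to 53 counts per library. Its lowest, median and highest levels were 1.47, 2.84 and 6.35 CPM among WT animals and 1.24, 2.23 and 4.32 CPM among B3AR-Tg, with wide overlap. The interval of its log2 fold change, −1.09 to 0.17, was the widest of the 9 (edgeR adjusted p = 0.432).

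How firmly the 5 calls stand differed by gene. With 1 animal left out at a time, Kcnj2 and Kcnj5 passed in 16 of 16 edgeR fits, with the largest adjusted p at 0.0411 and 0.0277. Kcnj3 passed in all but the fit without B3AR-Tg replicate 5, where its adjusted p was 0.0501. Kcnd2 missed the threshold without WT replicate 1 or 8 or B3AR-Tg replicate 2, 5, 6 or 8 (adjusted p from 0.0601 to 0.0839). Kcnh2 missed it without WT replicate 1, 2, 4, 6 or 7 or B3AR-Tg replicate 2, 4, 5 or 8 (adjusted p from 0.0521 to 0.0879). The count of members called was 3 without WT replicate 1, B3AR-Tg replicate 2 or B3AR-Tg replicate 8, and 2 without B3AR-Tg replicate 5.

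The marker level of other cells and the load markers differed between genotypes, as the 5 called genes did. The mean fibroblast and endothelial marker level, on a log2 scale centred over the 16 animals, lay between −0.09 and 1.16 in WT and between −1.51 and 0.17 in B3AR-Tg. With that level as a covariate, 0 of the 9 members were called, and 3 of all genes, against 537 of all genes without a covariate. The estimates of the 5 genes remained positive, at 0.31 for Kcnj2, 0.46 for Kcnj3, 0.56 for Kcnj5, 0.43 for Kcnd2 and 0.53 for Kcnh2, with adjusted p-values from 0.378 to 0.599. The load score, the mean of the 5 load markers centred in the same way, lay between 0.07 and 2.03 in WT and between −1.82 and 0.29 in B3AR-Tg. With the load score as a covariate, 0 members were called as well, and 7 of all genes. Estimates were then 0.11 for Kcnj2, 0.20 for Kcnj5, 0.21 for Kcnd2 and 0.39 for Kcnh2, and −0.13 for Kcnj3, the other sign, with adjusted p-values from 0.732 to 0.910. Genotype, load markers and other-cell markers differ together in these animals, so their parts in the result cannot be told apart by these fits. The 7 atrial myocyte markers, given because GIRK genes and Kcna5 are strongly expressed in atria, summed to 26.5 to 100.6 CPM among WT animals and 15.1 to 70.0 among B3AR-Tg, and 0 of 5 tested passed. Of these 5, 4 had negative estimates and 1 a positive one, with a median log2 fold change of −0.55. Among conduction cell markers, which summed to 10.03 to 39.9 CPM among WT animals and 13.2 to 35.1 among B3AR-Tg, Cacna1g was the 1 of 4 tested that rose (log2 fold change 0.94, edgeR adjusted p = 0.0119). The part of either cell type in the result was not tested.

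Since all animals had a constricted aorta, the members were also compared with the load score among animals of the same genotype. Within WT, Kcnj2 and Kcnj3 fell as the load score rose, and the 7 other members did not pass. The slope was −0.33 per log2 unit of load score for Kcnj2 (standard error 0.08, edgeR adjusted p = 0.0239) and −0.45 for Kcnj3 (standard error 0.08, edgeR adjusted p = 0.00668). Of all genes tested within WT, 3.74% passed in either direction and 1.16% with a negative slope. Kcnj5 (−0.30), Kcnd2 (−0.30) and Kcnip2 (−0.33) had negative slopes that did not pass, with edgeR adjusted p-values of 0.207, 0.268 and 0.191. Kcnj11, Kcnq1 and Kcnh2 had positive ones of 0.19, 0.10 and 0.07, and Kcna5 had −0.18. The WT scores, centred on the WT mean, were not spread evenly. Replicates 2, 4 and 8 lay between 0.78 and 1.04 and the other 5 animals between −0.91 and −0.11, so the slopes rest largely on the contrast between these animals. Replicates 2, 4 and 8 also had the 3 highest fibroblast and endothelial marker levels in WT, at 1.16, 0.67 and 0.75 against −0.09 to 0.62 in the others, and the part of those markers in the slopes was not tested. Kcnj3 was at 39.8, 33.2 and 36.2 CPM in replicates 2, 4 and 8, below the 46.5 to 66.8 CPM of the other WT animals. The call for Kcnj3 held without each WT animal in turn (adjusted p at most 0.0311), while Kcnj2 missed the threshold without replicate 2, 3, 5 or 6 (adjusted p from 0.0574 to 0.0782). Without replicate 2, Kcnj5, Kcnd2 and Kcnip2 passed (slopes of −0.50, −0.57 and −0.52), which with Kcnj3 made 4 members. Without replicate 4, the slopes of Kcnd2 and Kcnip2 were −0.13 and −0.20 (edgeR adjusted p = 0.539 and 0.427).

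Within B3AR-Tg, edgeR called 0 of the 9 members and 0% of all genes at an adjusted p under 0.05, and 483 of 9974 genes had an unadjusted p under 0.05. Kcna5, Kcnh2, Kcnj3, Kcnj5 and Kcnj2 had slopes of −0.46, −0.35, −0.30, −0.23 and −0.21, and Kcnq1 and Kcnj11 had −0.15 and 0.02. Replicate 7 had the highest centred score, 1.29, followed by 0.50 in the next animal. Without it, the slopes of Kcnj3 and Kcnj5 were −0.58 and −0.46 (edgeR adjusted p = 0.314 and 0.371). That of Kcna5 was −0.77 without replicate 8 and −0.30 without replicate 5. Those of Kcnd2 and Kcnip2 were −0.01 and 0.00, with 95% intervals of −0.21 to 0.19 and −0.20 to 0.20. The difference between the genotypes' slopes was tested as an interaction and did not pass for any member (edgeR adjusted p = 0.995 for each; 502 of 10945 genes had an unadjusted p under 0.05). For Kcnip2 it was 0.33 with a 95% interval of −0.07 to 0.73.

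**Figure D2:**
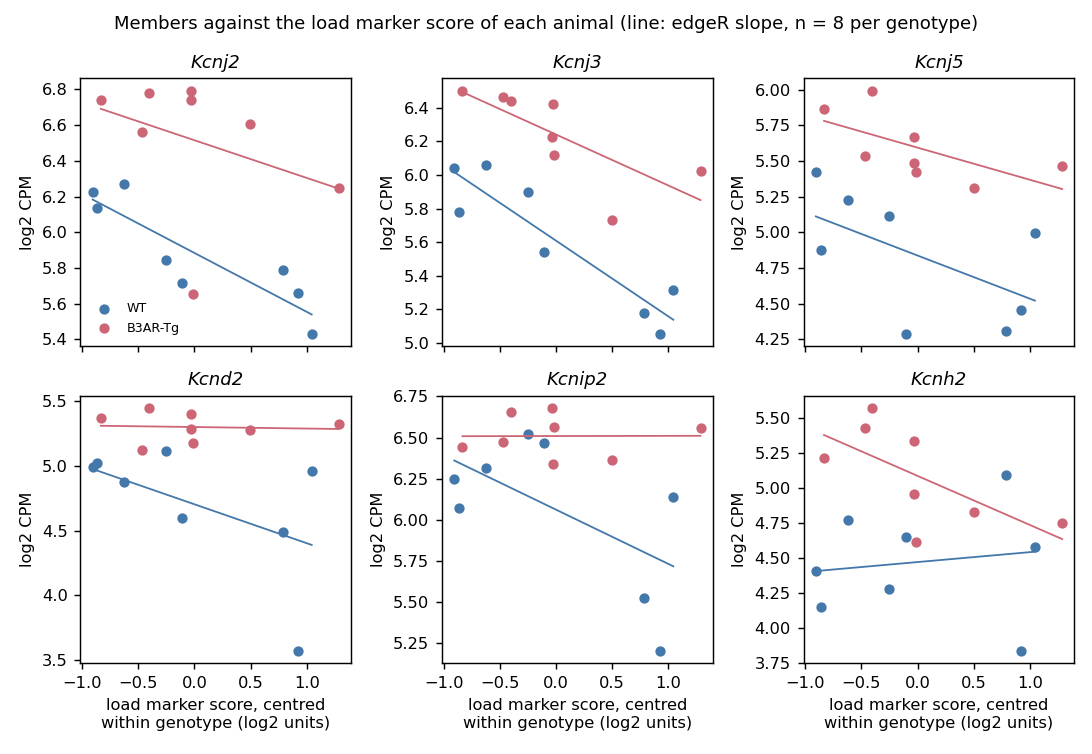
Level of 6 members in log2 CPM (vertical axis) against the load marker score of each animal, centred within its genotype, in log2 units (horizontal axis), for 8 WT (blue) and 8 B3AR-Tg (red) animals, with edgeR slopes as lines. Kcnj3 slopes down in WT by 0.45 per unit as fitted, while the B3AR-Tg line of Kcnd2 is nearly flat.

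Channel subunits work in complexes, so 6 genes were set against a partner within each library, which makes the comparison nearly independent of the library's scaling. Of the 6 balances, 3 differed between genotypes when all ways of dividing the 16 animals into groups of 8 were enumerated (two-sided exact permutation test, smallest possible p 0.000155, Benjamini-Hochberg adjustment over the 6). Values are differences of log2 CPM, gene less partner, as mean ± SD over 8 animals. The balances use the same counts as the tests of single genes and are not independent of them.

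Kcnq1 gained on Kcne1, its beta subunit, which slows the gating of the slow delayed rectifier. The balance was 1.78 ± 0.52 for WT animals against 2.86 ± 0.44 for B3AR-Tg, a difference of 1.08 (two-sided exact permutation p = 0.000466, adjusted p = 0.0028), and all 8 B3AR-Tg animals were above the WT median. Kcne1 itself fell, from a lowest, median and highest level of 3.48, 5.72 and 10.3 CPM in WT to 2.34, 3.56 and 4.95 CPM in B3AR-Tg (difference on the log2 scale −0.81, edgeR adjusted p = 0.0394). WT replicates 4 and 8, the animals low in Kcnd2 and Kcnip2, had the 2 highest Kcne1 levels, 10.3 and 9.04 CPM. The Kcne1 call was lost in 9 of the 16 fits without 1 animal (WT replicates 1, 4, 6 and 8 and B3AR-Tg replicates 2, 4, 5, 7 and 8, adjusted p up to 0.103), whereas the balance passed in all 16. The Kcne1 call was also lost with library size scaling alone (adjusted p = 0.0625), without the low-count filter (0.0517) and with limma voom (0.0589).

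Kcnj11 lost ground to Abcc9, which encodes SUR2, the sulfonylurea receptor that surrounds the Kir6 pore. The balance went from −2.71 ± 0.39 in WT animals to −3.38 ± 0.43 in B3AR-Tg, a difference of −0.67 (two-sided exact permutation p = 0.00591, adjusted p = 0.0177), with all 8 B3AR-Tg animals below the WT median. Abcc9 rose, with a lowest, median and highest level of 263.6, 335.8 and 436.3 CPM in WT and 391.7, 452.5 and 521.0 CPM in B3AR-Tg (difference on the log2 scale 0.44, edgeR adjusted p = 0.0132). Its neighbour in function Abcc8 (SUR1) was at 17.8 ± 3.04 CPM in WT animals against 19.9 ± 2.54 in B3AR-Tg (edgeR adjusted p = 0.454).

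Kcnj2 gained on Kcnj12, which encodes Kir2.2, another subunit of the inward rectifier. Their balance rose from 2.25 ± 0.34 in WT to 2.90 ± 0.45 in B3AR-Tg, a difference of 0.66 (two-sided exact permutation p = 0.00901, adjusted p = 0.018), with 7 of 8 B3AR-Tg animals above the WT median. Kcnj12 was at 12.4 ± 1.94 CPM in WT animals against 12.2 ± 1.90 in B3AR-Tg (log2 fold change −0.03, 95% interval −0.27 to 0.21). With so small a difference in Kcnj12, the balance largely repeats the difference of Kcnj2 given above.

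The other 3 balances did not pass. Kcnj3 less Kcnj5, both parts of the GIRK channel, was 0.77 ± 0.27 for WT animals against 0.65 ± 0.20 for B3AR-Tg (exact permutation adjusted p = 0.326). Kcnd2 less Kcnip2 was −1.35 ± 0.29 and −1.21 ± 0.17 (exact permutation adjusted p = 0.289). Kcnd2 less Kcnd3, which encodes Kv4.3, was 1.54 ± 0.62 and 1.96 ± 0.41 (exact permutation adjusted p = 0.187), and Kcnd3 was at 9.22 ± 2.93 CPM in WT animals against 10.3 ± 2.72 in B3AR-Tg.

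**Figure D3:**
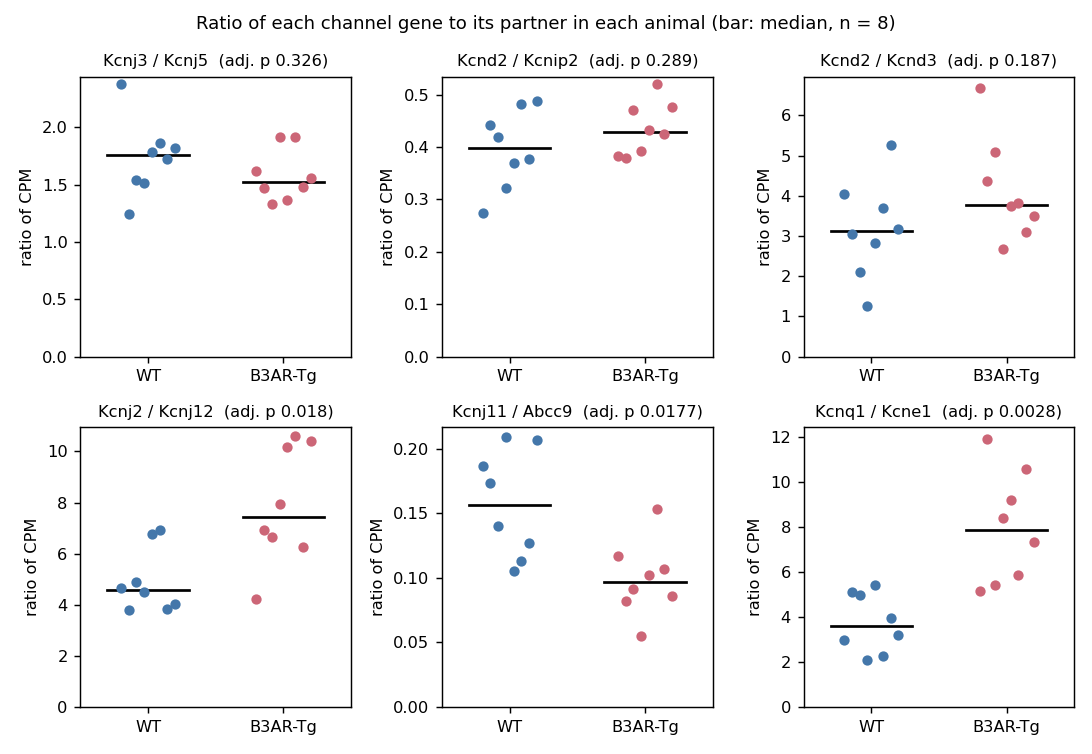
Ratio of the CPM of each channel gene to that of its partner (vertical axis, from 0) in 8 WT (blue) and 8 B3AR-Tg (red) animals, with the median as a bar. In the ratio of Kcnq1 to Kcne1, all 8 B3AR-Tg animals lie above the WT median, and in that of Kcnj11 to Abcc9 all 8 lie below it.

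Levels between genes were compared per kilobase of exon, on gene models of GENCODE M21. In WT the order was Kcnip2 at 20.02 ± 5.58 CPM per kb, Kcnj11 at 13.9 ± 2.37, Kcnj2 at 11.1 ± 2.28, Kcnj3 at 9.66 ± 2.56 and Kcnj5 at 6.34 ± 1.84 CPM per kb. Below them came Kcnd2 at 5.29 ± 1.45, Kcnq1 at 5.14 ± 1.11, Kcnh2 at 4.73 ± 1.27 and Kcna5 at 1.17 ± 0.529 CPM per kb. The neighbours Kcnj2 and Kcnj3 differed by less than 1 SD, as did those from Kcnj5 down to Kcnh2. In B3AR-Tg, Kcnj2 (17.3 ± 3.89 CPM per kb) and Kcnj3 (14.7 ± 2.58) stood above Kcnj11 (12.2 ± 3.52), though by less than 1 SD for Kcnj3, and Kcnip2 remained first at 26.3 ± 2.30 CPM per kb. The others were Kcnj5 at 10.4 ± 1.76, Kcnd2 at 7.66 ± 0.577, Kcnh2 at 7.195 ± 1.73, Kcnq1 at 6.48 ± 0.776 and Kcna5 at 0.854 ± 0.401 CPM per kb. Scaling by the longest transcript moved Kcnq1 from place 7 to place 5 in WT. Abcc9, at 40.0 ± 6.62 CPM per kb in WT, was above every member.

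The remaining potassium channel genes were taken from 5 lists of 88 genes, of which 17 were tested and 70 were too low to be tested. Of these 17, 2 rose (Abcc9 and Kcnk3), 1 fell (Kcne1) and 14 did not pass, against 4.91% of all tested genes called in either direction. With either covariate described above, 0 of these 3 genes passed. Of all genes, 3 were called with the other-cell level and 7 with the load score. The median log2 fold change of the 17 genes was 0.20, against 0.01 for all tested genes. Kcnk3 encodes TASK-1, a 2-pore-domain background channel. It had a lowest, median and highest level of 50.0, 60.9 and 90.2 CPM in WT and of 68.7, 90.3 and 109.9 CPM in B3AR-Tg (difference on the log2 scale 0.45, edgeR adjusted p = 0.0404). All 8 B3AR-Tg animals were above the WT median. Kcnk3 missed the threshold in 11 of the 16 fits without 1 animal, with adjusted p-values up to 0.0942. The 3 calls fell to 1, Abcc9, without WT replicate 1, 4 or 8 or B3AR-Tg replicate 4, 5, 7 or 8.

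By class, 1 of 5 tested inward rectifier and ATP-sensitive channel genes rose and 0 of 7 voltage-gated alpha subunits passed. The silent subunit Kcnv2 was at 7.80 ± 3.86 CPM in WT animals against 12.6 ± 3.32 in B3AR-Tg (edgeR adjusted p = 0.0938). Kcna4, which encodes the slow transient outward subunit Kv1.4, was at 2.96 ± 1.35 CPM in WT animals against 1.39 ± 0.821 in B3AR-Tg (log2 fold change −1.08, edgeR adjusted p = 0.0730). The sign was opposite to that of the fast subunit Kcnd2, but Kcna4 did not pass and had only 3 to 50 counts per library. Neither of the 2 tested calcium-activated channels passed, and the small-conductance channel Kcnn2 had an estimate of 0.69 (edgeR adjusted p = 0.0779).

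**Figure D4:**
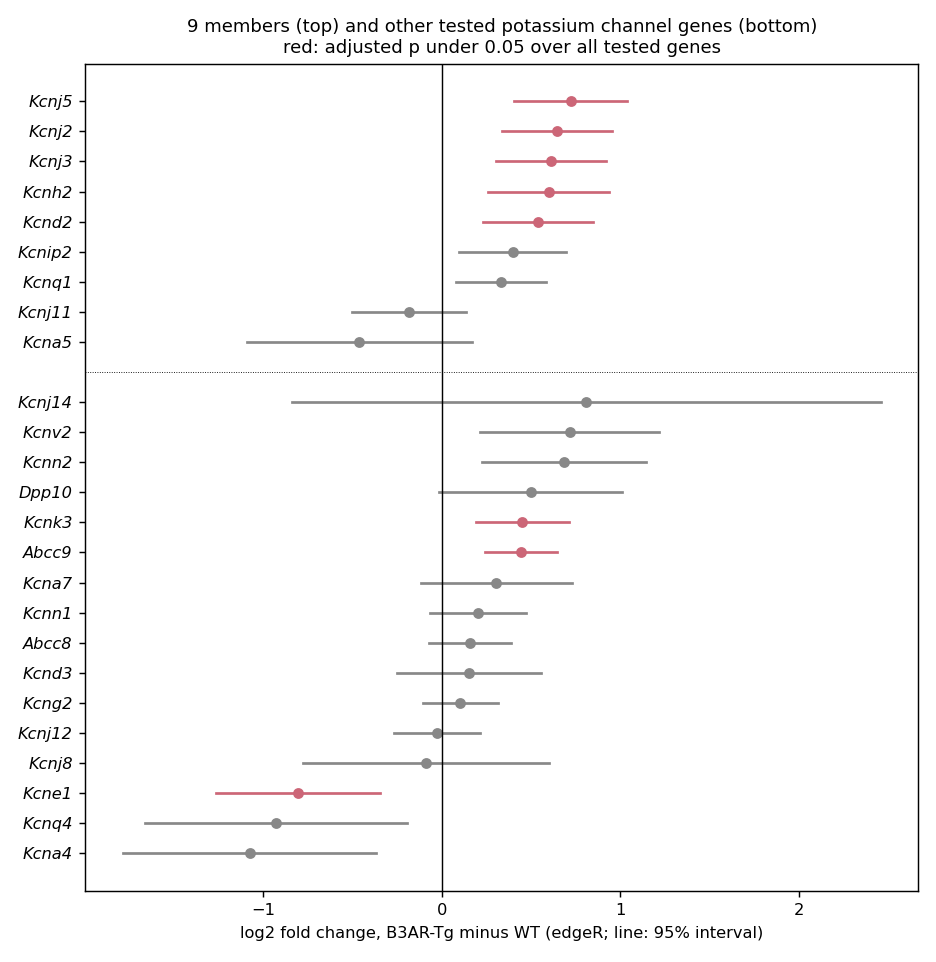
Log2 fold change, B3AR-Tg minus WT (horizontal axis, edgeR, lines are 95% intervals), for the 9 members (top) and other tested potassium channel genes (bottom), with adjusted p under 0.05 in red. Among the members 5 are red and to the right of 0, and in the lower block Kcnk3 and Abcc9 lie to the right and Kcne1 to the left.

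Genes that act on these channels mostly did not pass, as was so for tested genes in general, of which 4.91% were called in either direction. In the pathway that opens the GIRK channel, 0 of 16 tested genes passed. Chrm2, the M2 muscarinic receptor, was at 143.9 ± 29.8 CPM in WT animals against 158.3 ± 28.1 in B3AR-Tg (edgeR adjusted p = 0.589). The adenosine receptor gene Adora1 was at 6.40 ± 2.04 CPM in WT animals against 6.96 ± 1.34 in B3AR-Tg (edgeR adjusted p = 0.797). Among 11 anchoring and trafficking partners, only Sgk1, a kinase that acts on channel trafficking, fell, from 22.7 ± 3.71 CPM in WT animals to 15.2 ± 4.90 in B3AR-Tg (log2 fold change −0.59, edgeR adjusted p = 0.0384). Its call was lost in 11 of the 16 fits without 1 animal, with adjusted p-values up to 0.0852, and with library size scaling alone (0.0857). Among 7 transcription factors of cardiac channel genes, only Irx3, a factor of the ventricular conduction system, fell. It had a lowest, median and highest level of 6.18, 10.5 and 14.1 CPM in WT and of 5.15, 6.56 and 8.41 CPM in B3AR-Tg, with 0 B3AR-Tg animals above the WT median (log2 fold change −0.65, edgeR adjusted p = 0.0148). Irx3 passed in 16 of 16 fits without 1 animal. Neither Irx3 nor Sgk1 passed with either covariate, where 3 (other-cell level) and 7 (load score) of all genes were called. Irx5, which is known to repress Kcnd2, was at 5.69 ± 2.24 CPM in WT animals against 3.65 ± 0.643 in B3AR-Tg (log2 fold change −0.66, edgeR adjusted p = 0.0983). Klf15, which is known to drive Kcnip2, was at 21.4 ± 4.82 CPM in WT animals against 24.9 ± 7.30 in B3AR-Tg (edgeR adjusted p = 0.493).

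For each of the 5 called members, up to 5 tested genes with the most similar pattern among animals are named, by the mean of the 2 Pearson correlations of log2 CPM within genotypes, over 8 animals each. These are among the highest values over all tested genes and describe likeness only. For Kcnj2 they were Gpr22 (0.87), Svip (0.87), Fbxw7 (0.86), Fbxl5 (0.85) and Zfp960 (0.85). Kcnj3 was most like Ntn4 (0.93), Nadk2 (0.91), Fan1 (0.90), Paqr9 (0.87) and Rad21 (0.85). Beside Kcnj5 stood Arhgap26 (0.86), Sdha (0.84), Zbtb18 (0.83) and Frmd4b (0.83), and beside Kcnd2 stood Fgf9 (0.92), Per3 (0.88), Zfp612 (0.86), Ttc30a2 (0.86) and Agk (0.83). Those nearest to Kcnh2 were Pitpnm1 (0.91), Lamb3 (0.83), Bhlhe40 (0.83), Pold1 (0.82) and Prkab1 (0.80). The 5 sets shared no gene. Between genotypes, Nadk2, Sdha and Zfp612 were the 3 of these genes that passed, with log2 fold changes of 0.37, 0.37 and 0.60.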

How the data were processed

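RNA of isolated ventricular myocytes was made into ribosome-depleted, stranded libraries and read from both ends, per the labels' protocols. The authors deposited whole-number counts per gene, 1 column per animal, without normalization. Salmon and the build GRCm39 are named in the submitters' processing notes. Salmon gives estimated counts, so the table may hold rounded estimates; rounding, annotation release and strand setting are not given in the sources used here. Columns were matched to animals, and animals to genotypes, by the labels. The labels name the animals as biological replicates, so each animal was taken as the unit of the tests. They name no batch, so a batch could not be entered in the fits.

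Counts were tested with edgeR 4.0.16 in R 4.3.3: filterByExpr (minimum count 10, minimum total 15), TMM factors, a quasi-likelihood test of genotype, Benjamini-Hochberg adjustment over all tested genes and a threshold of 0.05, two-sided. Slopes on the load score were fitted in the same way within each genotype; the test of the slope difference was added after the slopes were seen. Log2 CPM used a prior count of 2. Intervals are 95%. The floor of 3 counts lay between 0.201 and 0.487 CPM. No pair of libraries within a genotype agreed within sampling noise (chi-square per gene 6.21 to 57.4 over 56 pairs). The tests were checked on simulated data with 200 changed genes. Between genotypes, 16.5%, 52.5% and 86% of changes of 0.4, 0.6 and 1 log2 unit were recovered, with 15.4%, 6.25% and 3.91% of calls false. With no change, 0 genes were called. Slopes within WT of 0.4 and 1 were recovered for 4.5% and 74.5% of changed genes, with 10% and 8.59% of calls false. Changes of 0.4 were thus mostly missed, so a gene that did not pass is not shown to be unchanged.

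The members and lists were chosen with earlier results of these data known. Named were all members, their planned partners, called genes of the lists, Nppa and Myh7 as load values, and for each called member the 5 genes most like it; Irx5, Klf15, Kcnv2, Kcna4, Kcnn2, Abcc8, Chrm2, Adora1, Cacna1g and Adgrb3 were named after their values were seen. A few genes that the rule or the lists cover are not reported here by name. Kcne5 and the symbol Bmal1 had no row of that name; Arntl did. Promoters come from RefSeq (GRCm38.p6) and gene lengths from GENCODE M21 (GRCm38), matched by symbol or gene ID; no coordinates were converted. Alternatives covered scaling, filter, DESeq2 1.42.0, limma 3.58.1 voom, covariates, a replicate block, and each animal left out.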

Additional observations from a re-analysis of the deposited data

Results flagged for a closer look

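In 30 groups of 8 animals (9 members and 6 balances, each in both genotypes), the highest and lowest animal were checked for a gap to the nearest other animal larger than 0.526 of the group's range, the Dixon limit for 8 values on the log2 scale. Chance gives about 1 in 20, or 1.5 such groups, and 1 was found. Kcnd2 in WT replicate 4 was low, at 11.9 CPM from 133 counts while the 7 others ranged from 22.5 to 34.7 CPM, a gap of 0.595 of the range. The same animal was also the lowest WT animal for Kcnj3, Kcnip2 and Kcnh2 and had the highest Kcne1. Without it, Kcnd2 still passed the test between genotypes, with a log2 fold change of 0.43 (edgeR adjusted p = 0.0221).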

How the results depend on the processing

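Over RLE, upper quartile and library size scaling, no low-count filter, DESeq2, animal number as a covariate and the removal of mitochondrial genes, the 5 called members kept their direction and stayed past the threshold; limma voom called the same 5 and Kcnq1 as well (adjusted p = 0.0340). Members called numbered 0 with the other-cell marker level as covariate and 0 with the load score, where Kcnj3 (−0.13) and Kcnj11 (0.0774) changed sign. The other potassium channel genes called numbered 5 under DESeq2 and 0 with either covariate. Animals left out singly gave 2 to 5 members, 1 to 4 other potassium channel genes, and 1 to 4 members with a called slope within WT. With the replicate number as a block, 3 members and 0 other potassium channel genes were called. Kcnj3 (adjusted p = 0.0663) and Kcnh2 (0.0534) then missed the threshold, as did the Kcnj11 and Abcc9 balance by sign flips of pairs (exact permutation, adjusted p = 0.0781). The numbers belong to different animals, and same-numbered animals deviated with correlations between −0.219 and 0.094, so they were not taken as pairs. All 3 called balances passed without each animal in turn and with a prior count of 0.5. The balances were not tested with the other-cell marker level or the load score as covariate. Some uncalled slopes changed sign. With Nppa alone as the load measure, slopes within B3AR-Tg were 0.0697 for Kcnj2 (−0.21 with the 5 markers), −0.121 for Kcnj11, 0.0169 for Kcnd2 and −0.0073 for Kcnip2. With single animals left out, slopes ranged from −0.0172 to 0.209 for Kcnq1 and −0.0851 to 0.232 for Kcnh2 within WT. Within B3AR-Tg they ranged from −0.102 to 0.0859 for Kcnj11, −0.0683 to 0.018 for Kcnd2 and −0.0736 to 0.0321 for Kcnip2. The cause of these changes was not tested. Among the 9 members, depth limits Kcna5 most, at 12 to 53 counts per library. Over all genes, 537 calls became 230 with the block, 3 with the other-cell markers, 7 with the load score, and 272, 277 and 345 without WT replicate 4, B3AR-Tg replicate 5 and B3AR-Tg replicate 8.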
